A study of Homo sapiens with 18 samples.

Results

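The collagen chains described here are the 9 genes COL18A1, COL5A2, COL5A1, COL6A1, COL4A2, COL6A2, COL12A1, COL4A1 and COL3A1, out of 58302 genes in the expression table and 44 genes that carry a collagen chain name. They were chosen by measured values of these same RNA-seq libraries and peak lists, whose earlier results were known when the genes were listed, so their change between the groups is described and not tested. PANC-1, an established epithelial line from a human pancreatic ductal carcinoma, received by lentivirus either a control shRNA (shCtrl) or an shRNA against NAT10 (shNAT10). RNA-seq covered 3 shCtrl and 3 shNAT10 libraries, and acRIP-seq covered IP and input libraries of the same groups. Nothing in the labels says that the libraries of a group come from separate cultures or clones, so the spread and the p-values may measure technical variation alone. NAT10 is the enzyme that writes N4-acetylcytidine (ac4C) on mRNA, and which of the NAT10 shRNAs was used for these libraries is not given in the sources used here.

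Collagens are secreted proteins in which 3 alpha chains wind into a triple helix, and each chain repeats Gly-X-Y, glycine followed by a pair of other residues. Types III and V belong to the fibrils of connective tissue, type IV forms the sheet of the basement membrane, type VI forms beaded filaments near cells, type XII binds to the surface of fibrils, and type XVIII is a basement membrane collagen that also carries sugar chains. In pancreatic cancer most fibrillar collagen is known to be laid down by fibroblasts and stellate cells, while the tumor cells make a smaller part.

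The marker genes were read first. All 6 epithelial markers passed the filter of 1 FPKM in 3 or more libraries, with a summed level of 2792 to 3753 FPKM in shCtrl and 1497 to 1678 FPKM in shNAT10. Of these, KRT7, KRT8, KRT18 and KRT19 were called lower and EPCAM higher in shNAT10 (limma adjusted p under 0.05), and the part of that in the collagen values was not tested. Of 10 markers of fibroblasts and stellate cells, 2 passed, COL1A1 and THY1, and without COL1A1 the list summed to 1.07 to 1.49 FPKM in shCtrl and to 0.783 to 1.12 FPKM in shNAT10. FAP and DPT were listed at 0 in all 6 libraries, and COL1A2, DCN, LUM, PDGFRA, PDGFRB and ACTA2 had a mean under 0.1 FPKM. None of 5 endothelial markers passed, with sums of 0.320 to 0.673 FPKM over the 6 libraries. Epithelial markers were thus abundant, and apart from COL1A1 and THY1 the defining markers of the other types were each at a mean under 0.5 FPKM. NAT10 was at 31.6, 27.7 and 28.6 FPKM in shCtrl and at 7.92, 8.43 and 7.90 FPKM in shNAT10, 27.6% of the control mean (log2 fold change -1.84 ± 0.08 SE, limma adjusted p = 3.9e-05).

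Depth, worked back from the FPKM values, was 15831720 to 23521762 reads per library. FPKM scales the reads of a gene to the length of its transcript and to the reads of the library, so it permits a comparison of levels between genes. The libraries differed in one respect that touches long transcripts such as these, which run from 3461 to 11723 bases. In shCtrl replicate 2 the median gene under 2 kb lay 0.27 above its mean over the libraries and the median gene of 8 kb or more lay 0.41 below it, on the log2 scale, whereas the other 5 libraries stayed between -0.10 and 0.15. The median log2 fold change of all tested genes ran with it from -0.14 under 2 kb to 0.19 at 8 kb or more. Values without that library and values after a correction for length and GC content, chosen after seeing the data, are therefore given beside the log2 fold change of each chain. The pseudocount of 0.1, added to each FPKM before the logarithm, also bears on the chains of low level. With a pseudocount of 1 the log2 fold change was 0.74 for COL3A1 and 0.54 for COL4A1, and no other chain among the 9 moved by more than 1.5 times.

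**Figure D1:**
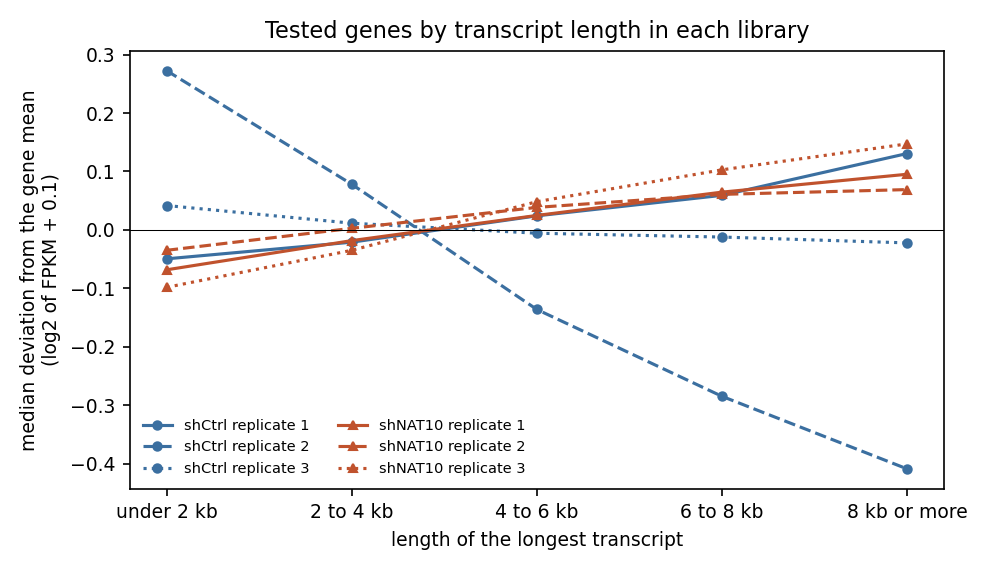
Median deviation of the tested genes from their mean over the 6 libraries (vertical axis, log2 of FPKM + 0.1) in 5 classes of transcript length (horizontal axis), with 1 line per library. The line of shCtrl replicate 2 falls from 0.27 to -0.41, and the other 5 lines stay between -0.10 and 0.15.

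The 9 chains differed widely in level, from a mean of 200.2 FPKM (COL18A1) to 0.776 FPKM (COL3A1) in shCtrl. In shCtrl their mean FPKM followed the order COL18A1, COL5A2, COL5A1, COL6A1, COL4A2, COL6A2, COL12A1, COL4A1 and COL3A1. The ranges over the libraries overlapped between COL6A2 and COL12A1 and between COL4A1 and COL3A1, and no other neighbours in that order overlapped. In shNAT10 the order was COL18A1, COL5A2, COL5A1, COL4A2, COL12A1, COL6A1, COL3A1, COL4A1 and COL6A2, with overlap between COL4A2 and COL12A1 and between COL4A1 and COL6A2. In such bulk libraries fewer cells that make a chain and less of its RNA per cell cannot be told apart. The 9 chains held 80.9% ± 0.57 (SD, n = 3) of the summed FPKM of all collagen genes in shCtrl and 86.8% ± 0.23 in shNAT10. That sum was 335.1 to 350.6 FPKM in shCtrl and 415.2 to 442.5 FPKM in shNAT10. Within it the mean share of COL5A2 went from 16.2% to 33.4%, the largest rise, and that of COL18A1 from 58.6% to 47.5%. The mean shares of COL4A2, COL6A1 and COL6A2 were lower in shNAT10 as well, and those of COL5A1, COL12A1, COL4A1 and COL3A1 higher by smaller amounts.

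**Figure D2:**
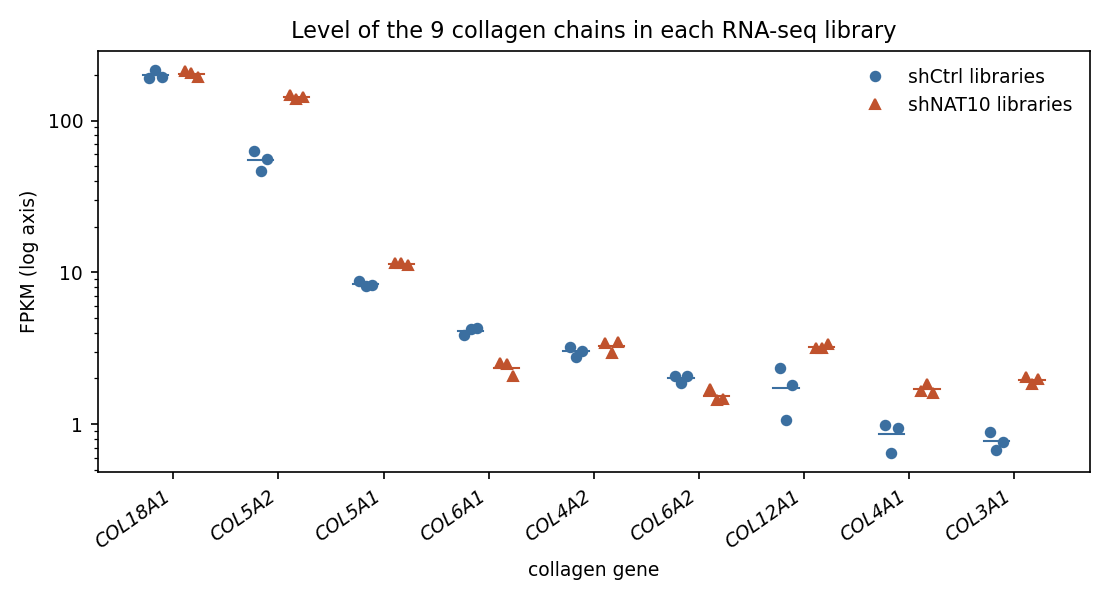
FPKM on a log axis (vertical) of the 9 chains (horizontal, by their mean in shCtrl) in each of the 3 shCtrl libraries (circles) and the 3 shNAT10 libraries (triangles), with a short line at the mean. COL18A1 lies at about 200 FPKM in both groups, COL5A2 lies at 46.7 to 63.0 in shCtrl and at 139.0 to 147.1 in shNAT10, and COL6A1 is the chain with the widest gap downward.

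Among the fibrillar chains, COL5A2 and COL3A1 stood higher in shNAT10 by the largest factors of the 9. COL5A2, the alpha 2 chain of type V collagen on chr2:189031896-189225312 (GENCODE v29, GRCh38, minus strand), was at 63.0, 46.7 and 55.8 FPKM in shCtrl and at 147.1, 139.0 and 142.7 FPKM in shNAT10. The groups lay far apart, with means of 55.2 ± 8.17 and 142.9 ± 4.03 (SD, n = 3) and a log2 fold change of 1.38 ± 0.11 (SE) on the scale of FPKM + 0.1. It was 1.27 ± 0.06 without shCtrl replicate 2 and 1.20 ± 0.04 after the correction. COL3A1, the single chain of type III collagen on chr2:188974320-189012746 on the plus strand, was at 0.884, 0.678 and 0.767 FPKM in shCtrl and at 2.04, 1.84 and 1.99 FPKM in shNAT10, from 76 to 100 and from 179 to 198 reads. Every shNAT10 library lay above every shCtrl library, with a log2 fold change of 1.24 ± 0.17 (1.15 without shCtrl replicate 2 and 1.14 after the correction). COL3A1 passed the filter through the shNAT10 libraries alone, so its groups had to differ. COL5A1, the alpha 1 chain of type V on chr9:134641774-134844843, moved less, from 8.77, 8.09 and 8.28 FPKM to 11.5, 11.4 and 11.1 FPKM. Its groups did not overlap either, and its log2 fold change was 0.44 ± 0.07 (0.41 without shCtrl replicate 2 and 0.40 after the correction).

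COL3A1 and COL5A2 are neighbours, with their 3′ ends facing each other across 19149 bases, and their ratio hardly moved. COL5A2 was 71.3, 69.0 and 72.7 times COL3A1 in shCtrl and 72.1, 75.7 and 71.7 times in shNAT10, so that the groups overlapped. Within type V the ratio of COL5A2 to COL5A1 was 7.19, 5.78 and 6.74 in shCtrl and 12.8, 12.2 and 12.8 in shNAT10, without overlap. The alpha 3 chain of type V, COL5A3, was at 0.016 FPKM in shCtrl and at 0.035 FPKM in shNAT10 on average. COL1A2, the alpha 2 chain of type I that fibroblasts pair with COL1A1, was at 0.009 and 0.003 FPKM.

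The chains of type IV differed from each other. COL4A1, on chr13:110148963-110307233 on the minus strand, was at 0.988, 0.643 and 0.937 FPKM in shCtrl and at 1.65, 1.84 and 1.60 FPKM in shNAT10, from 85 to 144 and from 171 to 233 reads. The groups did not overlap, with a log2 fold change of 0.93 ± 0.21 (0.76 without shCtrl replicate 2 and 0.86 after the correction). COL4A1 passed the filter through the shNAT10 libraries alone, so its groups had to differ. COL4A2, on chr13:110305812-110513209 on the plus strand, was at 3.23, 2.78 and 3.05 FPKM in shCtrl and at 3.40, 2.92 and 3.49 FPKM in shNAT10. These groups overlapped, and the log2 fold change was 0.11 with a 95% interval of -0.16 to 0.38 (0.05 without shCtrl replicate 2 and 0.12 after the correction). The ratio of COL4A2 to COL4A1 was 3.27, 4.32 and 3.25 in shCtrl and 2.06, 1.59 and 2.18 in shNAT10.

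COL4A1 and COL4A2 lie head to head. As annotated in GENCODE v29 they overlap by 1422 bases, because the COL4A2 annotation starts within that of COL4A1. In RefSeq (GRCh38.p14) 126 bases lie between the start sites of the chains, and these bases fall within COL4A2, and in part within COL4A1, of GENCODE v29. They are shown because the stretch is common to both chains. The stretch chr13:110307158-110307283 is written on the plus strand, the strand of COL4A2, with the CCAAT box (CCAAT) and the GC box (GGGCGG) in capitals.
COL4A1 and COL4A2 promoter: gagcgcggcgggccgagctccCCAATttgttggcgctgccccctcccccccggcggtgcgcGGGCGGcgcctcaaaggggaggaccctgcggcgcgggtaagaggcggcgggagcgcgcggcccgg
Both motifs were searched on both strands and did not overlap each other. A CCAAT was held by 34.6% and a GGGCGG by 44.9% of the 35116 RefSeq promoters of 300 bases, so that a match is a description of the sequence. Of the 9 chains 6 had a promoter in that table, all but COL3A1, COL5A2 and COL6A1.

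The chains of type VI were the ones that stood lower. COL6A1, on chr21:45981737-46005050, was at 3.86, 4.24 and 4.30 FPKM in shCtrl and at 2.52, 2.49 and 2.07 FPKM in shNAT10. The groups did not overlap, with a log2 fold change of -0.79 ± 0.12 (-0.77 without shCtrl replicate 2 and -0.68 after the correction). COL6A2, on chr21:46098097-46132849 of the same chromosome, was at 2.07, 1.87 and 2.06 FPKM in shCtrl and at 1.72, 1.44 and 1.47 FPKM in shNAT10. Its groups did not overlap, while its log2 fold change of -0.36 ± 0.14 came to -0.40 without shCtrl replicate 2 and to -0.18 ± 0.16 after the correction. The ratio of COL6A1 to COL6A2 was 1.87 to 2.27 in shCtrl and 1.41 to 1.73 in shNAT10. The alpha 3 chain, COL6A3, which completes the usual type VI trimer, did not pass the filter and stood higher in shNAT10. It was at 0.123 to 0.172 FPKM in shCtrl and at 0.229 to 0.297 FPKM in shNAT10.

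COL12A1, the fibril-associated type XII chain on chr6:75084326-75206051 and the longest transcript of the 9, was at 2.36, 1.06 and 1.81 FPKM in shCtrl and at 3.19, 3.15 and 3.38 FPKM in shNAT10. The control libraries were spread more widely than those of any other member relative to their mean, and the lowest of them was shCtrl replicate 2. The log2 fold change was 0.93 ± 0.26, and it fell to 0.62 ± 0.14 without that library and to 0.70 ± 0.15 after the correction. COL18A1, the precursor of the angiogenesis inhibitor endostatin, lies on chr21:45405137-45513720 and was at 190.6, 215.5 and 194.6 FPKM in shCtrl and at 210.8, 206.2 and 193.7 FPKM in shNAT10. These groups overlapped fully, with a log2 fold change of 0.03 and a 95% interval of -0.15 to 0.20 (0.08 without shCtrl replicate 2 and also after the correction). Of the exon bases of COL18A1, 16.4% lie opposite exons of SLC19A1, and how the counting used strand is not given in the sources used here, so reads of both genes cannot be told apart there.

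Over the 12982 genes that reached 1 FPKM in at least 3 libraries, limma called 20.8% higher and 21.2% lower in shNAT10 at an adjusted p under 0.05. That balance depended on the scaling, since TPM raised the median log2 fold change of all tested genes by 0.11 and gave 3355 higher and 2075 lower calls, beside 2699 and 2751. Under the same rule 5 of the 9 chains were called higher (COL5A2, COL3A1, COL4A1, COL12A1 and COL5A1), 1 lower (COL6A1) and 3 neither way (COL4A2, COL6A2 and COL18A1). The groups did not overlap with shNAT10 higher for 5 chains, beside 27.9% of all tested genes, and with shNAT10 lower for 2 chains, beside 28.6%. Since the genes were chosen with this contrast known, nothing is read from these counts. COL3A1 and COL4A1 passed the filter through the shNAT10 libraries alone and so had to differ. The call of COL12A1 was lost without shCtrl replicate 3 or without any 1 of the shNAT10 libraries, and that of COL4A1 without shNAT10 replicate 2.

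**Figure D3:**
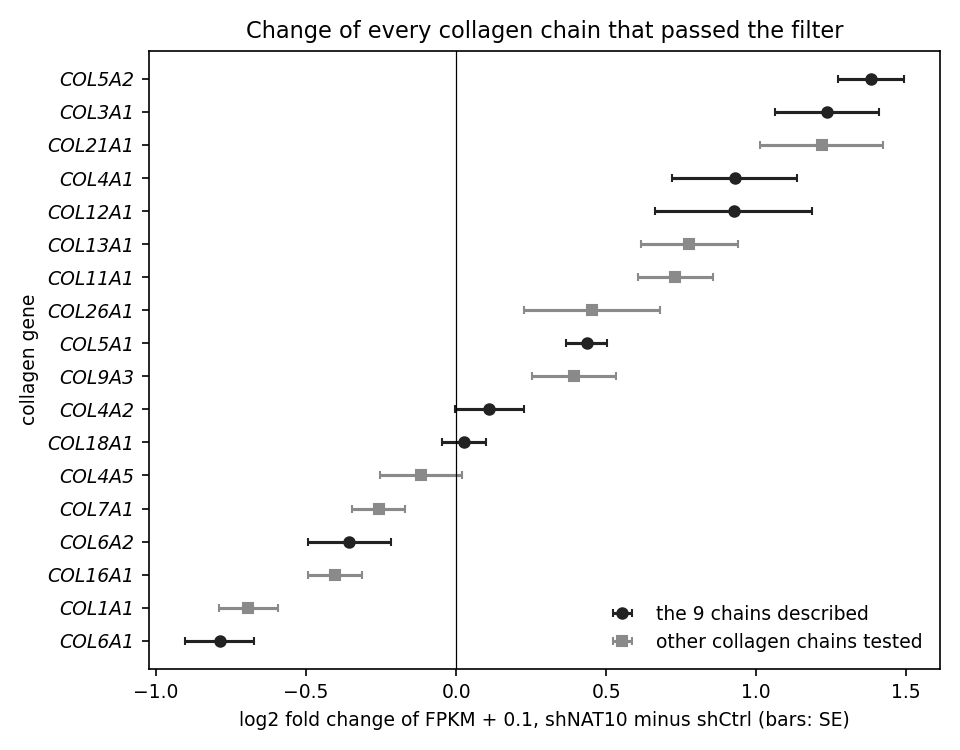
Log2 fold change of FPKM + 0.1, shNAT10 minus shCtrl, with its SE (horizontal axis), for every collagen chain that passed the filter (vertical axis, ordered by the change), with the 9 chains as black circles and the other 9 as grey squares. COL5A2 stands at 1.38 at the top and COL6A1 at -0.79 at the bottom, with COL1A1 next to it at -0.69.

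**Figure D4:**
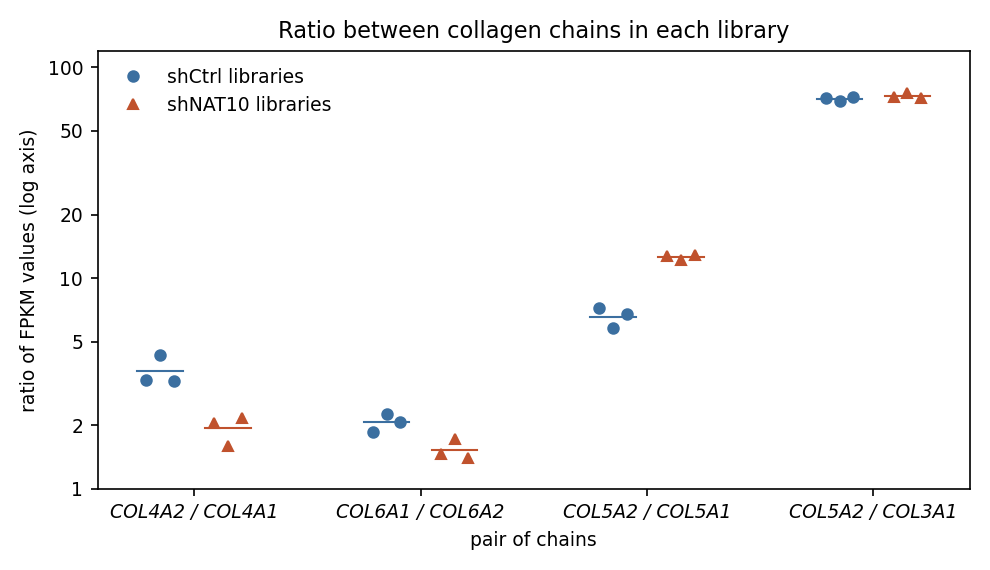
Ratio of FPKM values on a log axis (vertical) for 4 pairs of chains (horizontal) in the 3 shCtrl libraries (circles) and the 3 shNAT10 libraries (triangles), with a short line at the mean. The ratio of COL5A2 to COL3A1 overlaps between the groups at 69.0 to 75.7, and the other 3 pairs do not overlap.

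The likeness of other genes to each chain was measured by Pearson's r of log2(FPKM + 0.1) over the 6 libraries. It is a description, since all genes share the libraries and their depth. The group means were not removed, so r also carries the change between the groups. A partner that changed little ranks low for a chain that changed much. COL5A2 was most like GSE1, COL3A1 like ZNF652, COL12A1 like NFIB and COL5A1 like CBX6, each with r of at least 0.999. COL4A1 was most like BMS1P20, a pseudogene whose reads may belong to related copies, COL6A1 like LSM12, COL6A2 like FUT10, COL18A1 like NELFA and COL4A2 like ZNF117. COL5A2 ranked 9 among 12981 genes by likeness to COL3A1 (r = 0.999). Partner chains of one trimer ranked lower by this measure, which says nothing beyond their unlike changes. COL5A2 was at rank 46 for COL5A1 (r = 0.996), COL6A2 at rank 1886 for COL6A1 (r = 0.897) and COL4A2 at rank 4552 for COL4A1 (r = 0.563).

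The other 35 collagen genes are those that the choice left over, so their counts and p-values are not free of it. Of them, 9 passed the filter. Of these 9, 3 rose, 2 fell and 4 were not called, beside 20.8% higher and 21.2% lower over all tested genes. Their median log2 fold change was 0.39, and 0.14 without COL26A1, which passed the filter through shNAT10 alone, beside -0.01 over all tested genes. COL21A1 rose from 1.24, 0.877 and 1.58 FPKM to 2.93, 2.94 and 2.89 FPKM (log2 fold change 1.218 ± 0.206, limma adjusted p = 0.0037). COL13A1, a transmembrane collagen, rose by 0.78 ± 0.16 (limma adjusted p = 0.0087), and COL11A1, a minor fibril chain that assembles with type V chains, rose by 0.73 ± 0.12 (limma adjusted p = 0.0038). These 3 chains went the way of COL5A2 and COL3A1, without overlap between the groups.

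COL1A1, the alpha 1 chain of type I, fell from 28.6, 34.0 and 30.7 FPKM to 20.8, 19.5 and 17.3 FPKM, a log2 fold change of -0.69 ± 0.10 (limma adjusted p = 0.0018). COL16A1 fell by 0.40 on the log2 scale (limma adjusted p = 0.012). COL1A1 and COL5A2 thus moved in opposite directions, and the ratio of COL1A1 to COL5A2 was 0.454 to 0.727 in shCtrl and 0.121 to 0.141 in shNAT10. COL7A1 (-0.26), COL9A3 (0.39), COL26A1 (0.45) and COL4A5 (-0.12) were not called, with limma adjusted p of 0.052, 0.060, 0.15 and 0.52. After the length and GC correction, chosen after seeing the data, 8 of the 9 were called, 5 higher and 3 lower, with COL9A3, COL26A1 and COL7A1 added. Of the 26 that did not pass, 16 had a mean under 0.1 FPKM in both groups, and 3 of those were listed at 0 throughout.

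The enzymes and chaperones that modify and fold the chains in the endoplasmic reticulum all passed the filter, and 5 of 22 rose while 4 fell (median log2 fold change 0.08). These shares are near the 20.8% and 21.2% over all tested genes. P4HB, the shared subunit of the prolyl 4-hydroxylases, rose from 236.8 ± 30.8 to 344.6 ± 9.62 FPKM (SD, n = 3; log2 fold change 0.55 ± 0.10, limma adjusted p = 0.0046). PLOD1, a lysyl hydroxylase, rose by 0.50 ± 0.07 (limma adjusted p = 0.0021), and FKBP14, a prolyl isomerase, rose by 0.33 ± 0.10 (limma adjusted p = 0.042), which came to 0.20 after the correction. COLGALT1, which adds galactose to hydroxylysine, rose by 0.26 ± 0.06 (limma adjusted p = 0.018). CRTAP, a partner of the prolyl 3-hydroxylase, was called higher at 0.21 but came to 0.06 after the correction (limma adjusted p = 0.69). CREB3L1, a transcription factor known to turn on collagen genes, fell most, from 5.53 ± 1.01 to 2.14 ± 0.12 FPKM (-1.32 ± 0.15, limma adjusted p = 0.00075). P3H4 (-0.67), SERPINH1 (-0.46), the collagen chaperone also known as HSP47, and PLOD3 (-0.36) fell as well, with limma adjusted p of 0.0030, 0.010 and 0.010, and PLOD3 came to -0.19 after the correction. The calls of CRTAP, FKBP14 and COLGALT1 were lost in 5, 4 and 3 of the 6 fits that leave out 1 library, and those of the other 6 genes in none. For COLGALT1 these were shCtrl replicate 3 and shNAT10 replicates 1 and 2, for FKBP14 all shNAT10 libraries and shCtrl replicate 1, and for CRTAP all but shCtrl replicate 2.

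Of 17 genes that process and crosslink collagen outside the cell, 8 passed the filter. LOXL1, a lysyl oxidase, passed through shCtrl alone and so had to differ, at 1.61, 2.24 and 1.91 FPKM in shCtrl and at 0.952, 0.813 and 0.853 FPKM in shNAT10. Of the other 7, 4 were called lower and 2 higher (median log2 fold change -0.52), beside 20.5% lower and 20.5% higher among the 12681 genes that did not pass through 1 group alone. TGM2, a transglutaminase, fell from 27.7 ± 0.69 to 10.5 ± 0.74 FPKM (-1.40 ± 0.07, limma adjusted p = 6.0e-05). LOXL2, a lysyl oxidase that starts crosslinks, fell from 52.1 ± 0.83 to 24.4 ± 0.62 FPKM (-1.09 ± 0.06, limma adjusted p = 6.0e-05). BMP1, which cuts the C-terminal propeptide, was called lower (-0.53, limma adjusted p = 0.037), as was its enhancer PCOLCE (-0.52, limma adjusted p = 0.045). PCOLCE came to -0.33 without shCtrl replicate 2 and to -0.29 after the correction. PXDN, a peroxidase that links type IV collagen by sulfilimine bonds, was called higher at 0.44 (limma adjusted p = 0.037), and PCOLCE2 at 0.41 (limma adjusted p = 0.027). LOX itself was not called (-0.30, limma adjusted p = 0.34). TGM2 and LOXL2 were called whichever library was left out. Of those 6 fits BMP1 was called in none, PXDN in 1 (without shCtrl replicate 1), PCOLCE in 2 (without shCtrl replicate 1 or 2) and PCOLCE2 in 3, its call being lost without shCtrl replicate 1 or shNAT10 replicate 2 or 3. With LOXL1, the list held 4 calls without shCtrl replicate 3 or shNAT10 replicate 1 and 3 calls without shNAT10 replicate 2 or 3, beside 7.

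Among 13 receptors 8 passed. ITGA10, an integrin subunit that binds collagen, passed the filter through shNAT10 alone and so had to differ, at 0.569, 0.488 and 0.492 FPKM in shCtrl and at 1.67, 1.43 and 1.33 FPKM in shNAT10. Of the other 7, 2 rose and 1 fell, beside the same 20.5% in either direction. ADGRG1, an adhesion receptor that binds type III collagen, rose by 0.49 (limma adjusted p = 0.0021), and MRC2, which takes up collagen fragments, rose by 0.32 (limma adjusted p = 0.013). ANTXR2, which binds type IV and VI collagen, fell by 0.47 on the log2 scale (limma adjusted p = 0.0081). The call of MRC2 was lost without shNAT10 replicate 1 or 2, and without shCtrl replicate 2 the list held 6 calls, with DDR1 and ITGA2 added. Of 10 collagen-cleaving proteases 5 passed, and 1 rose and 1 fell, a share near that of all tested genes. MMP1 did not pass, at 0.234, 0.125 and 0.324 FPKM in shCtrl and at 1.25, 0.836 and 1.18 FPKM in shNAT10. With no filter the list held 3 calls, 2 higher and 1 lower, among 7 tested. Of all genes tested without the filter, 7.55% were called higher and 7.85% lower. MMP2 fell by 0.45 on the log2 scale (limma adjusted p = 0.0034), and CTSB rose by 0.40 (limma adjusted p = 0.010). MMP14, CTSK and CTSL were not called, and without shCtrl replicate 1 the list held 4 calls, CTSK and CTSL among them, both lower.

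Of 15 partners of the collagen network 7 passed, and 2 rose and 2 fell, beside 20.8% and 21.2% of all tested genes. NID1, which joins type IV collagen to laminin, rose from 35.6 ± 4.82 to 57.2 ± 3.04 FPKM (0.69 ± 0.11, limma adjusted p = 0.0028), and AGRN, a basement membrane proteoglycan, rose by 0.52 (limma adjusted p = 0.0012). SPARC, a collagen-binding protein, fell from 2.11 ± 0.34 to 0.813 ± 0.23 FPKM (-1.30 ± 0.24, limma adjusted p = 0.0051). TGFBI, which binds collagen and integrins, was called lower at -0.22 (limma adjusted p = 0.031), a call lost without shCtrl replicate 3 or any 1 of the shNAT10 libraries.

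In acRIP-seq, fragmented RNA was precipitated with an antibody against ac4C and compared with input, and 1 list of peaks stood for each group, so that no spread between replicates can be given. The 9 chains held 34 peaks in the shCtrl list and 37 in the shNAT10 list. At least 1 peak was listed for 8 chains in shCtrl, beside 49.6% of all tested genes, and for 7 chains in shNAT10, beside 47.7%. With 5 or more peaks there were 5 chains in shCtrl and 4 in shNAT10, beside 3.94% and 3.40% of tested genes. Among the 9, the 5 chains with the most peaks in shCtrl had a mean of 0.776 to 4.14 FPKM there. COL1A1, which is not one of the 9, held 16 and 7 at a mean of 31.1 and 19.2 FPKM, the most in shCtrl of all 44 collagen genes. COL4A2 held 7 and 6, COL6A1 held 6 and 3, COL6A2 held 6 and 5, COL4A1 held 5 and 8, and COL3A1 held 5 and 7, in shCtrl and shNAT10 respectively. COL12A1 held 2 and 4 and COL5A1 held 1 and 4. COL5A2 held 2 in shCtrl and 0 in shNAT10, and COL18A1, the most abundant chain, held 0 in both.

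The enrichment over input, a ratio taken from the deposited lists, was for the most part higher on chains of low level. On the 9 chains it had a median of 333 in shCtrl and 181 in shNAT10, beside 49.3 and 45.2 over all peaks. The COL5A2 peaks had a fold of 17.6 and 7.46 and the COL5A1 peak in shCtrl 10.8, while the highest on COL4A2 was 3470 and the highest on COL6A1 in shNAT10 was 5270. COL12A1 in shNAT10 went the other way, with a median of 10.7 at a mean of 3.24 FPKM, beside 43.95 for COL5A1 at 11.4 FPKM. Over all protein-coding genes the median fold was 222 in shCtrl where the mean FPKM was 1 to 5, and 4.86 where it was 100 or more. Fold enrichment was therefore not used to compare chains of unlike level.

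Peaks were also listed on collagen genes with almost no RNA-seq signal. COL1A2 held 12 peaks in shCtrl and 10 in shNAT10 with fold enrichments up to 3680 and 5400, COL6A3 held 7 and 6, and COL8A1 held 4 and 3 at a mean of 0.003 and 0 FPKM. Of the 10 markers of fibroblasts and stellate cells, 5 had a peak in shCtrl and 7 in shNAT10, with 34 and 25 peaks in all. COL1A1 held 16 and 7 of these, and the 8 markers under 0.1 FPKM held the other 18 and 18. Of all protein-coding genes under 0.1 FPKM, 11.4% and 10.6% had a peak. Of the 16 collagen genes under 0.1 FPKM, 4 and 5 had one. By the study's methods the assays did not sample the same RNA. The RNA-seq libraries were made from captured mRNA, and the acRIP and input libraries from fragmented total RNA with ribosomal cDNA taken out. Which RNA these peaks came from, and its part in the peaks of COL3A1, COL6A1 and the other chains of low level, was not tested.

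The peaks of the 9 chains lay mostly in the coding sequence (CDS) and across several exons. When the middle base of each peak was placed on the longest coding transcript, 30 of 33 placed peaks in shCtrl and 29 of 35 in shNAT10 fell in the CDS, beside 59.1% of all placed peaks in either list. The CDS itself spans from 4497 of 7081 transcript bases (COL5A2) to 3057 of 3461 (COL6A2), and the counts were not corrected for this. Exons that code for a collagen helix tend to have lengths that are multiples of 9 bases, the length of a Gly-X-Y triplet. Of the complete inner exons inside the peaks, 46 of 71 in shCtrl (64.8%) and 44 of 58 in shNAT10 (75.9%) were multiples of 9, beside 14.6% and 14.7% over all peaks. For COL3A1 these were 22 of 22 and 11 of 12. The exons of these chains outside the peaks were not counted, so these shares describe the structure of the genes. They do not show where in a chain the peaks lie.

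In COL3A1 all 1784 coding bases under shCtrl peaks lay in runs of at least 10 Gly-X-Y triplets, which make up 72.9% of its CDS, and 75.4% of those under shNAT10 peaks did. In COL4A2 the helix held 64.8% and 65.5% of the coding peak bases beside 66.1% of the CDS. In COL6A1, whose CDS is 29.2% helix, the share was 16.7% in shCtrl and 88.4% in shNAT10. In COL6A2, with 32.4%, it was 22.8% and 23.9%. In COL12A1, a chain with little helix (7.64%), no peak base lay in it in either list. Without replicate lists a shift such as that of COL6A1 cannot be set against an error.

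The lists shared part of these peaks. Of the 34 shCtrl peaks 15 (44.1%) overlapped a shNAT10 peak by at least 1 base, and of the 37 shNAT10 peaks 16 (43.2%) overlapped a shCtrl peak, beside 25.6% and 27.4% of all peaks. All of them lay on COL3A1, COL4A1, COL4A2, COL6A1 and COL6A2. Where each peak had to cover at least 50% of the other, 8 and 8 counted as shared, beside 12.7% and 13.6% of all peaks. None of the COL5A2, COL5A1 and COL12A1 peaks was found in the other list.

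Stretches of coding sequence that both lists cover are shown for 1 chain each of types III, IV and VI, to show the helix repeat under the peaks. They are spliced GENCODE v29 sequence on GRCh38, read 5′ to 3′ on the strand of the gene, with the glycine codons of the Gly-X-Y runs in capitals. COL3A1 is at chr2:188993430-188994547 (181 bases of 4 exons), COL4A2 at chr13:110424977-110429897 (151 bases of 3 exons) and COL6A2 at chr21:46122914-46125293 (151 bases of 4 exons).
COL3A1: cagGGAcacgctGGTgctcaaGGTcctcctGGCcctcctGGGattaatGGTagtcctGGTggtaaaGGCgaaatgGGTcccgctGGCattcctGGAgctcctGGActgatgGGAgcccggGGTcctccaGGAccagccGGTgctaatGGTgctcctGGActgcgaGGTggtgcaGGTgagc
COL4A2: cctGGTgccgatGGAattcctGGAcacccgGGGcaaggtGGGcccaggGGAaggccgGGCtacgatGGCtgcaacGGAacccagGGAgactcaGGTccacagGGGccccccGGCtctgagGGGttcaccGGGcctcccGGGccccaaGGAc
COL6A2: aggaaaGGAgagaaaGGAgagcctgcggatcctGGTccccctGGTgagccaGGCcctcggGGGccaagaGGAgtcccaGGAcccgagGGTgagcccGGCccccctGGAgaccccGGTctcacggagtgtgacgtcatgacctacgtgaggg
Glycine codons recur every 9 bases through the whole of the COL3A1 and COL4A2 stretches. In COL6A2 the stretch leaves the helix, and 114 of its 151 bases lie in the runs. Most peaks over these stretches reach beyond them, and they were not the same in the lists. The peak over the COL3A1 stretch had 181 bases and a fold enrichment of 558 in shCtrl, and 240 bases and 748 in shNAT10. That over the COL4A2 stretch had 719 bases and 306 in shCtrl, and 181 bases and 61.3 in shNAT10. That over the COL6A2 stretch had 211 bases and 71.1 in shCtrl, and 300 bases and 2660 in shNAT10.

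A repeat of C followed by any pair of bases, CNNCNNCNNCNN, is the sequence that ac4C peaks are commonly searched for. It was found in 12 of 26 shCtrl peaks of the chains and 13 of 33 shNAT10 peaks whose sequence could be read, beside 51.8% and 51.9% of all peaks. None of the 3 stretches above, which were picked to show the helix, holds it. Among the other coding stretches that both lists cover, that of COL4A2 at chr13:110432348-110438637 held 5 starts. There 36 of its 210 bases lay in the runs. That of COL6A2 at chr21:46112420-46112510 held 3 starts, with 0 of its 91 bases in the runs. The remaining coding stretches that were read did not hold the repeat. In the CDS the repeat started 22.9 times per kilobase in COL6A2, 21.1 in COL18A1 and 18.5 in COL6A1, 1.59 times in COL3A1 and not at all in COL5A2. In shCtrl and shNAT10, COL6A2 held 6 and 5 peaks, COL18A1 0 and 0, COL6A1 6 and 3, COL3A1 5 and 7, and COL5A2 2 and 0. These chains also differ widely in level, and a link between motif density and peaks was not tested.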

How the data were processed

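RNA-seq of PANC-1 cells was analysed in 3 shCtrl and 3 shNAT10 libraries, and acRIP-seq as 1 peak list per group, with groups from the sample labels. The authors mapped reads to GRCh38 with HISAT2 and counted them with HTSeq 0.11.0, per the submitters' processing notes, and deposited FPKM values. For acRIP-seq the authors deposited each peak with its fold enrichment of IP over input, a ratio, and its p-value, and the peak caller is not given in the sources used here. Columns with logarithms of these values were used only to rank peaks.

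The 9 chains and all gene lists were chosen with earlier results of these data known, so the counts and p-values of listed genes are not free of that knowledge. The 12982 genes that reached an FPKM of 1 in 3 or more libraries entered limma 3.58.1 (R 4.3.3) as log2(FPKM + 0.1). The fit allowed a trend of variance with level, and p-values were adjusted by Benjamini-Hochberg over all these genes. A gene counted as called at an adjusted p under 0.05. On simulated data for this comparison with 12982 genes, 189 of 200 changed genes were called, beside 14 false calls. The share of genes called at the log2 fold changes given for the chains was not tested. Whole reads were worked back from the FPKM values within 0.02 reads. For 12476 of the tested genes they came out whole at the longest GENCODE v29 transcript. For the others, COL5A2, COL4A1 and COL4A2 among them, a length that makes the reads whole was searched for, so wholeness there is no check. The reads entered limma's voom as an alternative. In each list all called genes were named, as were all tested collagen chains.

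Positions came from GENCODE v29. Peaks were shared when exon blocks on the same strand overlapped by at least 1 base. Gly-X-Y runs were found by translating the longest CDS. Python 3.11.15, NumPy 2.4.6, pandas 2.3.3 and matplotlib 3.10.9 were used. The ac4C-seq of the study is not analysed here.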

Additional observations from a re-analysis of the deposited data

How the results depend on the processing

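The direction of every called chain among the 9 and of NAT10 (log2 fold change -1.88 to -1.79 when 1 library was left out) was the same under all alternatives that gave a value. Among the 9 chains the number called was 4 to 7, except that a minimum FPKM of 5 left 3 to test and 2 called, and 4 to 6 when 1 library was left out. Under the same minimum the other collagen chains had 2 calls, the processing and crosslinking enzymes 4 and the receptors 2, with fewer genes tested, and with no filter the processing and crosslinking enzymes had 4. Leaving out 1 library gave 3550 to 6621 calls over the whole table, beside 5450, with the fewest without shNAT10 replicate 3. It gave 3 to 5 calls of processing and crosslinking enzymes, beside 7, and 2 to 4 of proteases, beside 2. The length and GC correction, chosen after seeing the data, gave 8 calls of other collagen chains, beside 5. With the replicate number as a block 6 chains were called, as without it, and no count of calls moved by over 1.5 times. The deviations of same-numbered libraries had r of -0.04, 0.06 and 0.11, and those of different numbers had r of -0.12 to 0.06. These values showed no clear pairing by number, and so few libraries cannot exclude a weak one. Requiring each peak to cover 50% of the other left 8 shared peaks in either list, beside 15 and 16. The 50% of peaks with the smallest p-values in each list held 18 and 15 peaks of the chains, beside 34 and 37. Searching 3 repeats gave 17 of 26 peaks in shCtrl, beside 12, and 24 of 33 in shNAT10, beside 13. Of all peaks 83.5% and 83.4% held 3 repeats. The cause of these shifts was not tested. Low reads limit COL3A1, COL4A1 and COL6A2.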
